A study of Mus musculus with 23 samples.

Results

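The RNA of stretched axons was compared with that of control axons in cultured mouse hippocampal neurons. The members are the 11 axonal libraries of the 23 in the series, chosen by their titles: 5 control and 6 stretched. The other 12 libraries come from the cell-body side of the chambers, called somata here. Fold changes are given only for genes with at least 1 count in at least 9 of the 11 axonal libraries. For all other genes, only detection is described, meaning whether a library holds at least 1 count of the gene.

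Neurons of both groups came from hippocampi of newborn C57Bl/6 mice (P1). Into the soma side of a microfluidic chamber, 200000 cells were seeded, and axons could grow from there into a compartment coated more heavily with poly-D-lysine and laminin. Every culture, control or stretched, received magnetic nanoparticles (MNPs) at 5 µg/ml hours after seeding. Stretched cultures then lay in a magnetic field gradient of 50 T/m, which pulls the loaded neurites, between DIV 1 and DIV 6 (days in vitro), whereas the gradient for control cultures was null. Cultures with no MNPs are not part of the comparison, so any effect shared by both groups cannot be seen. The labels call the axonal samples pure axonal preparations and the cell-body samples total cell culture. Replicates carry numbers (control 1, 2, 3, 5 and 7, stretched 1, 2, 4, 5, 6 and 8). Nothing in the labels says that they come from separate cultures or animals, so the p-values measure only the spread between these samples.

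Axons hold their own pool of mRNA, ribosomes and RNA-binding proteins, and translate part of that pool far from the nucleus. In cultured neurons this pool is known for transcripts of ribosomal proteins, nuclear-encoded mitochondrial proteins, and cytoskeletal proteins such as beta-actin. Motor proteins carry transcripts in RNA granules along microtubules, and a growing axon needs new microtubules, membrane and organelles along its shaft. The comparison asks whether a sustained weak pull changes which RNAs, and how much of each, the axons hold.

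The axonal libraries held 16369153 to 43048953 counts and were patchy. The number of genes detected ran from 4263 to 10242 of 55487 gene IDs, and control replicate 5 and stretched replicate 8 held far more genes (10242 and 10065) than the other 9 libraries (4263 to 7012). Across the 2348 tested genes the correlation of log levels between 2 axonal libraries had a median of 0.621 (0.430 to 0.889), so no library was a copy of another. Reads in no annotated feature made up 6.67% ± 1.34 of the control libraries (SD, n = 5) and 4.82% ± 0.55 of the stretched ones (SD, n = 6), a difference larger than either SD although the ranges overlapped (4.45 to 7.94% and 3.95 to 5.41%), and its part in the results was not tested. Levels are given as CPM, the library's counts scaled to a fixed total, corrected by trimmed mean of M values (TMM). Levels summed over a list are in CPM of the library total without that scaling. A floor of 3 counts was worth 0.0697 to 0.183 CPM, and covers counting error only.

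Glial RNA was present in every axonal library, which goes against the label of a pure preparation. Gfap, the intermediate filament of astrocytes, was at 19728, 19434, 13966, 3648 and 4772 CPM in control replicates 1, 2, 3, 5 and 7. In the stretched libraries it was at 15555, 4699.7, 2905, 10959, 5519.9 and 5589 CPM (replicates 1, 2, 4, 5, 6 and 8). Of 24 astrocyte markers, 23 had a count in some axonal library, 17 in at least 9, and Gjb6 had none in any. Others were sparse: Aldh1l1 was counted in 7 libraries, Aqp4 in 5, S100b in 4 and Ntsr2 in 1. Aqp4 averaged 31.0 CPM in control and 36.9 CPM in stretched axons, against 301 CPM in somata. The summed level of the 24 markers was 10163 to 35542 CPM in the controls and 12709 to 32438 CPM in the stretched libraries, against 9436 to 27038 CPM in somata. Much of it was Gfap, which averaged 12309 CPM in the controls, where the sum averaged 23353 CPM. Microglial markers were scattered (16 of 18 with a count somewhere, P2ry12 and Trem2 at 0), with a sum of 0 to 3486 CPM in the controls and 0 to 3080.3 CPM in the stretched libraries. Of 18 oligodendrocyte lineage markers 10 were counted somewhere, and Sox10, Olig2, Cspg4, Mag, Ermn, Enpp6, Gpr17 and Neu4 were at 0. Of 23 vascular and fibroblast markers 18 were counted, and the endothelial genes Cldn5, Cdh5, Kdr and Tek and the muscle filament gene Des were at 0 in all 11. Microglial sums of 3486 CPM in control replicate 2 and 3080.3 CPM in stretched replicate 8 were the highest, and 0 was found in both groups. The sums averaged 780 CPM in the controls and 1194 CPM in the stretched libraries. Much of this was Lyz2, which averaged 479 and 828 CPM in the same order. Lyz2 was counted in 7 of the 11 libraries, and Cx3cr1 and Aif1 in 1 each. In a bulk library, fewer cells or axons of a kind and less RNA from each cannot be told apart.

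No gene passed the test between stretched and control axons. Of 2348 genes tested with edgeR's quasi-likelihood test, 0 had a Benjamini-Hochberg adjusted p under 0.05 (0% called), and the smallest adjusted p was 0.9996. An unadjusted p under 0.05 was found for 51 genes (2.17%), of which 29 had estimates above 0 and 22 estimates below 0 (stretched minus control). limma with voom and quality weights also called 0, with 123 genes at an unadjusted p under 0.05. DESeq2 called 8 genes on the same counts. Those 8 are described further on, library by library. The median log2 fold change of all tested genes, stretched minus control, was -0.00022, and 439 genes, 247 higher and 192 lower, had an estimate beyond 2-fold.

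The gene with the smallest unadjusted p among the higher estimates at 100 CPM or more was Anxa2 (chromosome 9, 69453620 to 69491795, plus strand, mm10), which encodes annexin A2, a calcium-dependent protein of membranes and cortical actin. Its level was 459, 183, 302, 378 and 298 CPM in the 5 controls. The stretched libraries ran from 340.2 to 1134 CPM with a median of 809. Stretched replicates 1 and 5 lay within the control range and the other 4 above it. The comparison gave a log2 fold change of 1.24 (SE 0.43, 95% interval 0.30 to 2.18, edgeR quasi-likelihood unadjusted p = 0.0137). Anxa2 is also on the list of vascular and fibroblast markers, whose summed level was 802 to 3424 CPM in the controls and 1048 to 5805 CPM in the stretched libraries. The part of those cells in the difference was not tested. In somata the same gene had a log2 fold change of -0.49 (adjusted p = 0.00698), and the difference between compartments had an adjusted p of 0.303 in edgeR.

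Mtpn (chromosome 6, 35508906 to 35539888, minus strand) encodes myotrophin, which binds the actin capping protein and keeps it off filament ends. Its level was 136, 229, 100.1, 641 and 37.99 CPM in the controls, and control replicate 5, a library with many genes, held the highest of these. In stretched axons it ran from 441 to 1318 CPM with a median of 731. Only that control library reached into the stretched range. The fit gave a log2 fold change of 1.91 (SE 0.67, 95% interval 0.44 to 3.37, edgeR quasi-likelihood unadjusted p = 0.015), and without control replicate 5 the estimate was 2.77 with an unadjusted p of 8.09e-04 and an adjusted p of 0.522 in edgeR. Over 30 refits with other tools, scalings, filters, covariates or libraries, the estimate ran from 1.40 to 2.85. In somata Mtpn was higher by 0.48 on the log2 scale (edgeR adjusted p = 0.00387).

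Arl6ip1, a membrane protein that shapes tubules of the endoplasmic reticulum, was at 281, 240.2, 373, 269 and 322 CPM in the controls, a narrow range. Its stretched values ran from 301 to 999 CPM with a median of 743. Stretched replicates 5 and 6 fell inside the control range, and the other 4 were higher. The estimate was 1.16 (SE 0.43), with an unadjusted p of 0.019 in edgeR. Sparc, a secreted matrix glycoprotein that is also on the astrocyte list, was at 344, 649, 879, 459.8 and 887 CPM in the controls. In stretched axons Sparc ran from 709.9 to 2213 CPM with a median of 1240.2, with replicates 4 and 5 inside the control range. Its estimate was 1.09 (SE 0.40), whereas in somata it was -0.65 (edgeR adjusted p = 0.0225), and the difference between compartments had an adjusted p of 0.303. Summed astrocyte markers overlapped between the groups, and the part of glial RNA in the Sparc values was not tested. Prnp, the prion protein, had an estimate of 0.91 (SE 0.38) and overlapping groups. Ewsr1, a nuclear RNA-binding protein, had an estimate of 1.19 (SE 0.54), also with overlap.

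Among the lower estimates Selenow (chromosome 7, 15917208 to 15922402, minus strand), a small selenoprotein of redox metabolism, was among the most heavily counted. Its values were 5964, 3447, 6548, 2943 and 4885 CPM in the controls. In the stretched libraries they ran from 1625 to 4337 CPM with a median of 2197. Only stretched replicate 2 exceeded the lowest control. The fit gave a log2 fold change of -0.96 (SE 0.30, 95% interval -1.61 to -0.30, edgeR quasi-likelihood unadjusted p = 0.00824), and in somata the estimate was -0.11 (edgeR adjusted p = 0.217).

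Kif5c (chromosome 2, 49619298 to 49774778, plus strand), a heavy chain of kinesin-1, the motor that carries cargo towards the axon tip, was at 2572, 1285, 1539.7, 1527 and 1862 CPM in the controls. Stretched values ran from 298 to 1734 CPM with a median of 834. Stretched replicate 5 alone lay within the control range, and the other 5 were below every control. The fit gave a log2 fold change of -1.02 (SE 0.39, 95% interval -1.87 to -0.17, edgeR quasi-likelihood unadjusted p = 0.0229). Kif1a, a kinesin-3 that carries synaptic vesicle precursors, was at 4603, 3693, 2855, 2922 and 3668 CPM in the controls. In stretched axons Kif1a ran from 1256 to 3624 CPM with a median of 2178, with 2 of the 6 libraries inside the control range. Its estimate was -0.62 (SE 0.30) with an unadjusted p of 0.0615 in edgeR, while in somata Kif1a was higher by 0.28 (adjusted p = 0.0257). The difference between compartments had an adjusted p of 0.757 for Kif1a and 0.582 for Kif5c.

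Ybx1, a cold-shock protein that packages mRNA, was at 317, 503, 1078, 203 and 442 CPM in control axons and ran from 36.2 to 353 CPM with a median of 200.4 in stretched axons. Stretched replicates 2, 4 and 5 lay within the control range and replicates 1, 6 and 8 below it. The estimate was -1.42 (SE 0.68), with an unadjusted p of 0.0585 in edgeR. In somata Ybx1 fell by 2.07 on the log2 scale (adjusted p = 0.00387), and the test of a difference between compartments gave an adjusted p of 1.00. Cyb5r3, a reductase of lipid metabolism, had an estimate of -0.87 (SE 0.45), and -0.35 without control replicate 2. The plot of levels by library shows these genes side by side.

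**Figure D1:**
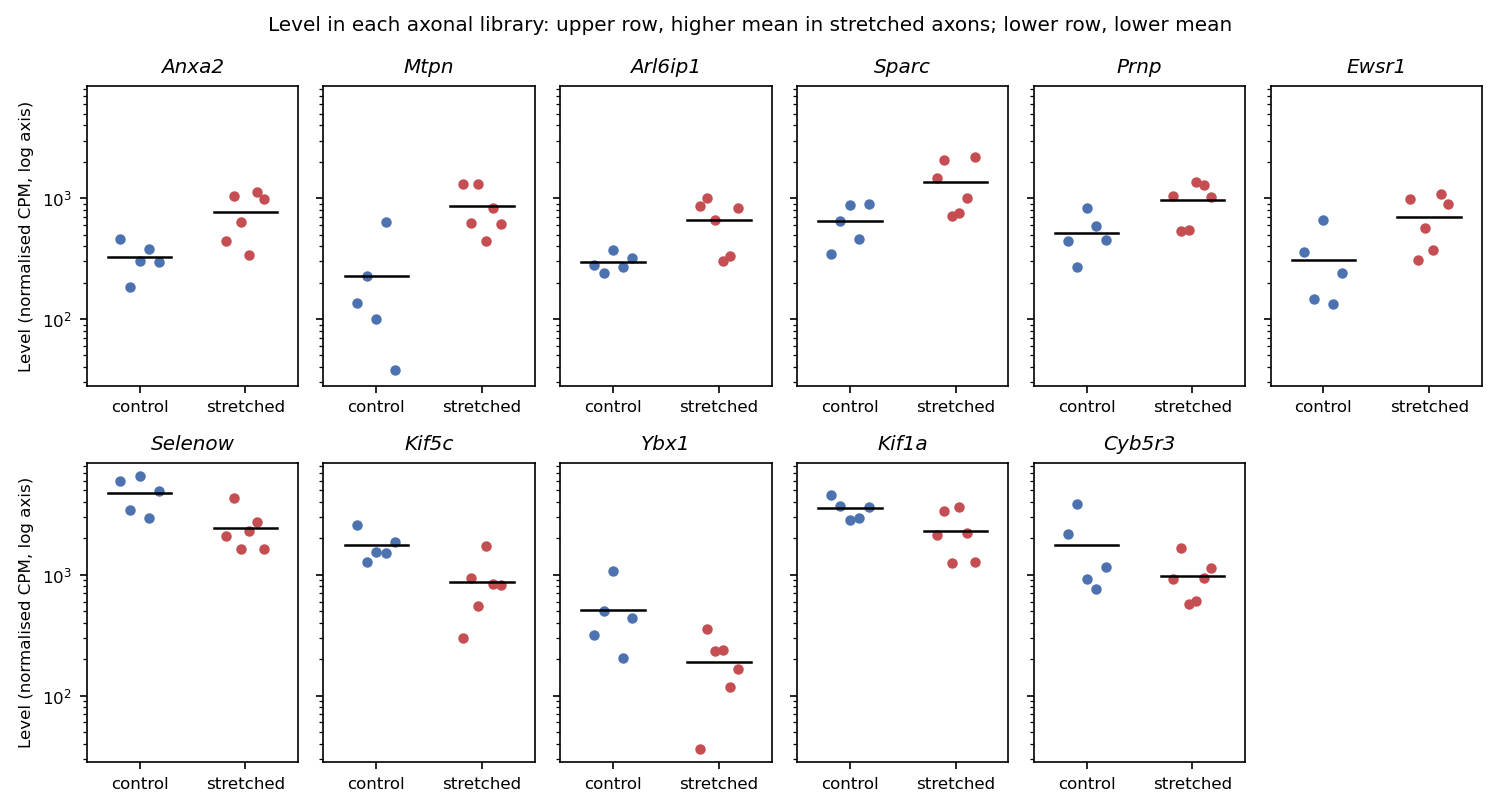
Level of 11 genes in each axonal library, as TMM-normalised CPM on a log axis; blue points are control libraries (n = 5), red points stretched libraries (n = 6) and black bars group means. The genes are those with a mean of at least 100 CPM and counts in all 11 libraries among the 20 named for the smallest unadjusted p, and the groups overlap in every panel.

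Most of the remaining genes of smallest unadjusted p were counted at high level in 1 to 3 libraries and below 3 CPM in the rest. Stxbp6, which encodes the SNARE-binding protein amisyn, was at 116 CPM and 99.6 CPM in stretched replicates 5 and 6 and at most 0.215 CPM in the other 9 libraries. Inhba, a subunit of activin, was at 32.3 and 142 CPM in control replicates 5 and 7 and below 1 CPM in the other 9. Frem1, an extracellular matrix protein, had 26.7 and 166 CPM in control replicates 1 and 7 and below 1 CPM elsewhere. In each of these genes the group with the higher mean held libraries below 1 CPM too. Creg2, a secreted glycoprotein, was at 128 CPM in control replicate 3 and at most 1.504 CPM elsewhere. Rcbtb1 was at 219 CPM in stretched replicate 4 and at most 1.31 CPM elsewhere. Kdsr, an enzyme of sphingolipid synthesis, was at 0, 299.6, 2.66, 58.3, 139 and 0.538 CPM in the stretched libraries and at most 1.64 CPM in the controls.

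Itfg1 was counted in all 6 stretched libraries, from 34.9 to 399.9 CPM with a median of 161. The controls held 0, 3.35, 9.23, 35.3 and 0 CPM, so that 5 of the 6 stretched libraries lay above every control and stretched replicate 2 just under the highest. Foxo3, a forkhead transcription factor, was at 8.69, 59.9, 8.12, 53.0 and 0.148 CPM in the controls and at most 6.24 CPM in stretched axons, with control replicate 7 near the floor. Stox2 held 176, 0, 472, 19.9 and 430.1 CPM in the controls and at most 27.0 CPM in stretched axons. Its unadjusted p was 0.056 in edgeR. In all, 43 tested genes were at or under 3 counts in at least 5 libraries and above 50 CPM in at least 1, and 9 of the 51 genes with an unadjusted p under 0.05 were among them.

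The 8 genes that DESeq2 called were below 3 CPM in most libraries. They were Kdsr, Golga4 and Stxbp6 with higher and Inhba, Frem1, Ttbk1, Pabpc4 and 1300002E11Rik with lower estimates. Golga4, a golgin of the trans-Golgi network, was at 20.3 and 35.9 CPM in stretched replicates 5 and 8 and below 1 CPM elsewhere. Ttbk1, a kinase of tau, was at 35.4 and 68.7 CPM in control replicates 1 and 5 and below 1 CPM elsewhere. Pabpc4, a cytoplasmic poly(A)-binding protein, was at 5.79 and 79.7 CPM in the same pair of libraries and at most 1.24 CPM elsewhere. The noncoding gene 1300002E11Rik was at 0.164, 32.8, 24.1, 6.79 and 59.0 CPM in the controls and at most 0.523 CPM in stretched axons. Golga4, Ttbk1, Pabpc4 and 1300002E11Rik lie outside the naming rule and are given because DESeq2 called them.

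Group values that did not overlap were found for 4 of 2348 genes (0.17%), all 4 lower in stretched axons, and none had an unadjusted p under 0.05. They lie outside the naming rule and were chosen after their values were seen. Rpl23, a protein of the large ribosomal subunit, was at 351, 295, 452, 298 and 306 CPM in the controls. In stretched axons it was at 162, 235, 274, 279.5, 283 and 288 CPM, so the gap between the groups was small with an estimate of -0.42 (SE 0.52). Hars, which charges histidine tRNA, was at 261, 233, 434, 529 and 315 CPM in the controls and ran from 0 to 166 CPM with a median of 141 in stretched axons. Dpy30, a subunit of histone methyltransferase complexes, was at 197, 102, 72.1, 84.5 and 233 CPM in the controls and ran from 0 to 55.1 CPM with a median of 18.2 in stretched axons. The long noncoding gene 1700020I14Rik was at 879.7, 394, 389, 419 and 439 CPM in the controls and ran from 0 to 251 CPM with a median of 76.8.

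Precision differed widely between genes. Of the tested genes 315 averaged below 1 CPM, 246 of them annotated as pseudogenes. The biological coefficient of variation was 1.45 in axons, against 0.163 in somata for the genes also tested there. The median SE of the log2 fold change was 1.29 over all genes, 0.67 for the 1035 genes counted in all 11 libraries and 1.72 for the 1313 counted in 9 or 10. It was 0.40 for the 102 genes at 1000 CPM or more.

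For 65 genes (2.77%) the 95% interval of the log2 fold change lay within -1 to 1, that is, within 2-fold in either direction, and all 65 were counted in every library. They include genes of the axonal cytoskeleton. Those named here that are not among the most counted members of a list were chosen after their values were seen. Cfl1, the actin-severing protein cofilin, was at 2597, 2271, 2366, 2998 and 2136 CPM in the controls and ran from 2120.2 to 3233 CPM with a median of 2315 in stretched axons, with an estimate of -0.021 (SE 0.17) and an interval of -0.40 to 0.36. Tmsb4x, which sequesters actin monomers, had an interval of -0.68 to 0.13. Tuba1a, the main alpha-tubulin of growing neurons, had an interval of -0.75 to 0.22, and Map1b, a microtubule protein of growing axons, one of -0.86 to 0.64. Actb was at 2541, 5613, 2307, 4164 and 1812 CPM in the controls and ran from 2169 to 4055 CPM with a median of 3161 in stretched axons, with an interval of -0.68 to 0.63. Eef1a1 (elongation factor), Hspa8 (chaperone), Calm2 (calmodulin), Rab3a (synaptic vesicle GTPase) and Fth1 (ferritin heavy chain) were among the other genes with such an interval. The count depends on the libraries kept: it was 40 without control replicate 5 and 10 within the 6 libraries of 1 set described next.

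**Figure D2:**
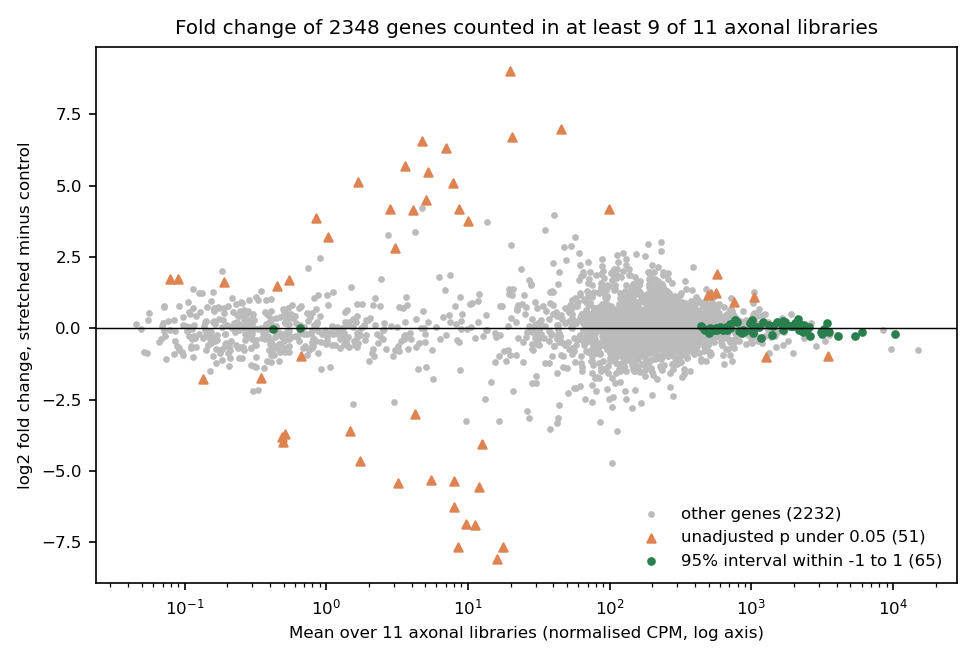
Log2 fold change of each of the 2348 tested genes (y axis, stretched minus control axons) against its mean level in the 11 axonal libraries (x axis, normalised CPM, log axis). Green points are the 65 genes whose 95% interval lies within -1 to 1, 23 of them at 100 to 1000 CPM and 40 at 1000 CPM or more; orange triangles are the 51 genes with an unadjusted p under 0.05, most of them below 100 CPM.

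The axonal libraries could be split by the level of Eif2s3y, a Y-linked translation factor gene, in the soma library of the same condition and number. The labels do not say that libraries of the same number come from the same chamber, so the split rests on that unverified match. Above 20 CPM were control replicates 1, 2 and 3 and stretched replicates 1, 2 and 8, and below it control replicate 5 and stretched replicates 4, 5 and 6. Control replicate 7 had no soma library of its number. In the controls Gfap was at 13966 to 19728 CPM above the limit and at 3648 CPM in the 1 library below it. Control replicate 7, in neither set, was at 4772 CPM. In stretched axons Gfap overlapped between the sets, and its part in the results was not tested. Within the 6 libraries above 20 CPM, 0 of 2348 genes passed in edgeR, with 45 at an unadjusted p under 0.05. The estimates there were 1.40 (SE 0.63) for Anxa2, 2.45 (SE 0.68) for Mtpn, 1.62 (SE 0.46) for Sparc, -0.99 (SE 0.46) for Selenow and -1.38 (SE 0.55) for Kif5c, each of the same sign as over all libraries. These genes were named for small p over all libraries, these 6 among them, so the shared sign is no separate support. The other set held 1 control library, too few for a fit.

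Next, 24 gene lists were described by the genes counted in at least 9 libraries. No member of any list passed the test, in either direction, and medians are set beside the median of -0.00022 over all tested genes.

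For microtubules, 9 of 16 tubulin genes could be compared, with a median of 0.13 and 5 estimates above 0 and 4 below. Tuba1a was at 3742, 3520.1, 5109, 6889.9 and 3399 CPM in the controls and ran from 2799 to 4404 CPM with a median of 3965 in stretched axons, with overlapping groups and an estimate of -0.26 (SE 0.22). Tubb5, a beta-tubulin, was at 11.2 CPM in stretched replicate 1 and above 700 CPM in the other 10 libraries. Tubb3, the neuronal beta-tubulin, was at 19.4 CPM in control replicate 1 and above 700 CPM elsewhere. So even heavily counted genes were almost missed in single libraries, in either group. Of the proteins that bind and regulate microtubules, 30 of 51 could be compared, with a median of 0.025 whose sign changed under 2 of 3 other scalings. Map2, a dendritic microtubule protein, had an estimate of 0.40 (SE 0.67) and Dpysl2, the collapsin response mediator CRMP2, one of 0.029 (SE 0.41).

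Motors carry RNA granules, mitochondria and vesicles, and 17 of 38 motor genes could be compared, with a median of 0.070. The 2 most counted motor genes, Kif1a and Kif5c, were both lower on average in stretched axons, as given above. Klc1, a light chain of kinesin-1 named here after its value was seen, was at 159, 317, 755, 929.7 and 1262 CPM in the controls and ran from 52.7 to 649.6 CPM with a median of 238 (estimate -1.16, SE 0.80). Those that follow lie outside the naming rule. Kif5b and Kif5a, the other kinesin-1 heavy chains, had estimates of 0.26 and -0.16. Dynein-dynactin genes such as Dync1h1 (0.37), Dync1i2 (-0.35) and Dctn3 (-0.71) lay on both sides of 0.

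The actin and growth cone list had 43 of 72 comparable genes, 22 estimates above 0 and 21 below, and a median of 0.0076 whose sign changed under 2 of 3 other scalings. Gap43, a membrane protein of growth cones, was at 2049, 469.7, 873, 1823 and 538 CPM in the controls and ran from 45.3 to 1590.3 CPM with a median of 1057 in stretched axons, with stretched replicate 1 the lowest. Its estimate was -0.25 (SE 0.67). Tmsb4x was at 5569, 6750.1, 5117, 6149 and 6183 CPM in the controls and ran from 3737 to 6903 CPM with a median of 4675. Its estimate was -0.28 (SE 0.19), and in 3 of 6 stretched libraries it lay below every control. Myh10, a nonmuscle myosin, was at 0, 554, 207, 362 and 0 CPM in the controls and ran from 0.0587 to 50.9 CPM with a median of 7.71 in stretched axons, with a wide error (estimate -3.59, SE 2.37). It was named after its value was seen.

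Of 16 genes of intermediate filaments and spectrin, 6 could be compared, with a median of -0.13. Sptan1, the alpha chain of the membrane spectrin lattice, had an estimate of -0.075 (SE 0.85), and Vim, the filament of glia and immature neurons, one of 0.16 (SE 0.50). Neurofilament genes were too sparse for a fold change. Nefl was counted in 4 of 5 control and 3 of 6 stretched libraries, Nefm in 2 of 5 and 3 of 6, and Nefh in none.

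Of the translation genes, those of cytosolic ribosomal proteins were better covered than the translation factors. Cytosolic ribosomal protein genes were counted in at least 9 libraries for 80 of 82 members, with a median log2 fold change of -0.17 and 23 estimates above 0 and 57 below. Their summed level was 22551 to 36966 CPM in the controls and 21432 to 45630.3 CPM in the stretched libraries, with medians of 34149 and 24802 CPM. The highest sum belonged to stretched replicate 2 and the next 3 to controls, so the groups overlapped. Rplp0, of the ribosomal stalk, was at 3369.9, 2698, 3145, 1999 and 2157 CPM in the controls and ran from 1095 to 4100.0 CPM with a median of 1856 in stretched axons (estimate -0.34, SE 0.31). In somata the same 80 genes had a median of -0.41, and 60 fell with an adjusted p under 0.05 while none rose, where 1008 of all 2091 genes tested in somata passed (48.2%), 476 lower and 532 higher. The axonal median stayed below 0 in all 30 alternatives (-0.35 to -0.10), which refit the same libraries and are no separate support. These genes have many near-identical copies in the genome, so how reads were shared out among them is uncertain.

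Translation factors numbered 33 of 55 with a median of -0.043. Eef1a1, which brings charged tRNAs to the ribosome, was at 1696, 2674, 1001, 1817 and 1994 CPM in the controls and ran from 1663 to 2289 CPM with a median of 1864 in stretched axons. Its estimate was 0.070 (SE 0.24), and Eif4g2, a scaffold of initiation, had 0.25 (SE 0.28). Genes of RNA transport granules had 17 of 54 comparable members, 12 estimates above 0 and 5 below, and a median of 0.40, with a median SE of 1.35. Hnrnpk, which binds transcripts of cytoskeletal genes, was at 219, 2350.0, 1384, 1383 and 256 CPM in the controls and ran from 327 to 2032 CPM with a median of 1149.8 (estimate 0.071, SE 0.62). Ran, the GTPase of nuclear transport, had an estimate of 0.47 (SE 0.51). The summed level of the granule list was 3649 to 9329 CPM in the controls and 5754 to 7652 CPM in the stretched libraries, so the control range enclosed the stretched one.

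Of 13 mitochondrially encoded genes 7 could be compared, and mt-Co2, mt-Co3, mt-Atp8 and mt-Nd4l had no count in any axonal library, nor in any soma library. The summed level spanned 11045 to 68267 CPM in the controls and 8955 to 54028 CPM in the stretched libraries. mt-Cytb, of respiratory complex III, was at 29952, 9570.5, 41864, 6109 and 8738 CPM in the controls and ran from 5485 to 25942 CPM with a median of 8807 in stretched axons. Control replicates 1 and 3 and stretched replicate 2 stood above the other libraries, and the estimate was -0.75 (SE 0.54). Nuclear genes of oxidative phosphorylation had 74 of 78 comparable members, with a median of -0.074 and 31 estimates above 0 and 43 below. In somata their median was -0.24, with 43 that fell and 2 that rose, against the same 48.2% of all genes tested in somata that passed in either direction. Atp5b, the catalytic beta subunit of ATP synthase, had an axonal estimate of 0.14 (SE 0.45), and Cox6a1, of cytochrome oxidase, -0.33 (SE 0.30). For transport and dynamics of mitochondria 14 of 32 genes gave a median of 0.034, which changed sign under 2 of 3 other scalings. Slc25a4 and Slc25a5, both ADP/ATP carriers, had estimates of 0.068 (SE 0.26) and -0.54 (SE 0.34).

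Endoplasmic reticulum genes gave 40 of 72 comparable members, with 22 estimates above 0 and 18 below and a median of 0.11. Pdia3, a disulfide isomerase of the ER, was at 1392, 283, 402, 579 and 301 CPM in the controls and ran from 482 to 3007 CPM with a median of 1136 in stretched axons. Control replicate 1 stood apart from the other controls. The estimate was 1.26 (SE 0.59) with an unadjusted p of 0.0538 in edgeR, and 1.87 without that library, with an unadjusted p of 0.00712 and an adjusted p of 0.9998. Over all 30 alternatives the Pdia3 estimate ran from 0.92 to 1.87. Hspa5, the ER chaperone BiP, had an estimate of 0.16 (SE 0.45).

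Presynaptic genes had 22 of 50 comparable members, with 15 estimates above 0 and 7 below and a median of 0.19. Rab3a was at 399, 573, 703, 694 and 591 CPM in the controls and ran from 419 to 768 CPM with a median of 616 in stretched axons. It was steady in all 11 libraries (estimate 0.049, SE 0.30) and was named after its values were seen. Sh3gl2 (2.32) and Snap91 (2.21), both of vesicle endocytosis and named after their values were seen, were each below 1 CPM in 4 control libraries and in 1 and 4 stretched ones, respectively. Ap2m1, a clathrin adaptor, had -0.19 (SE 0.45), and Syt11, a synaptotagmin, 0.042 (SE 1.22).

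Adhesion genes were sparse: 11 of 50 could be compared, with a median of 0.050 that changed sign under 1 of 3 other scalings. Ncam1, the neural cell adhesion molecule, was at 674, 446, 997, 1085 and 976 CPM in the controls and ran from 84.2 to 1458 CPM with a median of 896 (estimate 0.050, SE 0.55). Cdh2, N-cadherin, was at 9.07, 57.4, 82.7, 65.7 and 29.1 CPM in the controls and ran from 0 to 679 CPM with a median of 252 in stretched axons, with 5 of 6 above every control and 1 at 0 (estimate 2.54, SE 1.52). It was named after its values were seen.

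No mechanosensitive channel was counted in 9 libraries. Piezo1, Trpv4, Trpv1, Trpc5 and Kcnk4 had no count in any of the 11. With 3 counts as the limit, a level up to the floor of each library remains possible. Piezo2 had counts in 2 of 5 control and 1 of 6 stretched libraries, all at or under 0.0479 CPM. Trpv2, a cation channel, and the potassium channel Kcnk10 were each counted in 2 of 5 control and 3 of 6 stretched libraries, and Kcnk2 (TREK-1) in 2 of 5 and 1 of 6. Of the list of channels and calcium signalling genes 7 of 34 could be compared, none of them a channel, with a median of -0.21. Calm2 was at 2873, 3481, 2828, 2945 and 4303 CPM in the controls and ran from 2245 to 4412 CPM with a median of 2494 in stretched axons (estimate -0.14, SE 0.23).

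Guidance and growth factor receptors had 7 of 46 comparable members and a median of -0.047. Their summed level was 1348 to 2578 CPM in the controls and 2261 to 3477 CPM in the stretched libraries. Epha4, an ephrin receptor, was at 193, 61.3, 0.572, 248 and 0 CPM in the controls and ran from 0 to 831 CPM with a median of 347, with an estimate of 1.94 (SE 2.02). Bdnf, the neurotrophin, had an estimate of 0.50 (SE 2.06). Proteasome and ubiquitin genes (37 of 38) had a median of 0.057 and chaperones (25 of 35) one of 0.17. Ubb (ubiquitin) had an estimate of -0.19 (SE 0.25), Psmd2 (proteasome cap) -0.085 (SE 0.47), Hspa8 0.18 (SE 0.22) and Hsp90ab1 0.17 (SE 0.23).

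Markers of other cells were given the same description. Of the astrocyte list 17 of 24 could be compared, with a median of -0.075. Gfap had an estimate of -0.71 (SE 0.52) and Fabp7, a fatty acid-binding protein of radial glia, -0.062 (SE 0.42). Of the vascular and fibroblast list 4 of 23 could be compared (Anxa2, S100a11, Cavin1 and Rgs5), all with estimates above 0 and a median of 1.06. Rgs5, a pericyte gene, ran from 0.0408 to 729 CPM in the controls and from 0.713 to 1673 CPM with a median of 487 in stretched axons. Somatodendritic and nuclear transcripts (8 of 30) had a median of -0.48, below 0 in all 30 alternatives (-1.86 to -0.0055), all refits of the same libraries. Their summed level was 2258 to 7024 CPM in the controls and 1498 to 4256 CPM in the stretched libraries. In somata it was 5648 to 7028 CPM. Malat1, a nuclear RNA, was at 667, 806, 469.6, 2387 and 1699 CPM in the controls and ran from 342 to 2382 CPM with a median of 556 in stretched axons, with stretched replicate 1 alone at the upper end. Its estimate was -0.52 (SE 0.58), and -1.15 without that library (unadjusted p = 0.0316, adjusted p = 0.9997 in edgeR). Malat1 averaged 1206 CPM in control axons, 842 CPM in stretched axons and 852 CPM in somata. Over all 30 alternatives the Malat1 estimate ran from -1.22 to 0.91, with 29 of the same sign. H2afz, a histone variant, had an estimate of -0.075 (SE 0.35). Cd9 was the only comparable oligodendrocyte marker, at 0.10 (SE 1.35), and Rrm2, of nucleotide synthesis, the only proliferation gene, at 1.23 (SE 1.60). Summed proliferation genes were at 857 to 2643 CPM in the controls and 199 to 4765 CPM in the stretched libraries. In somata they were at 591 to 891 CPM. The source of nuclear and proliferation transcripts in the axonal libraries was not tested.

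**Figure D3:**
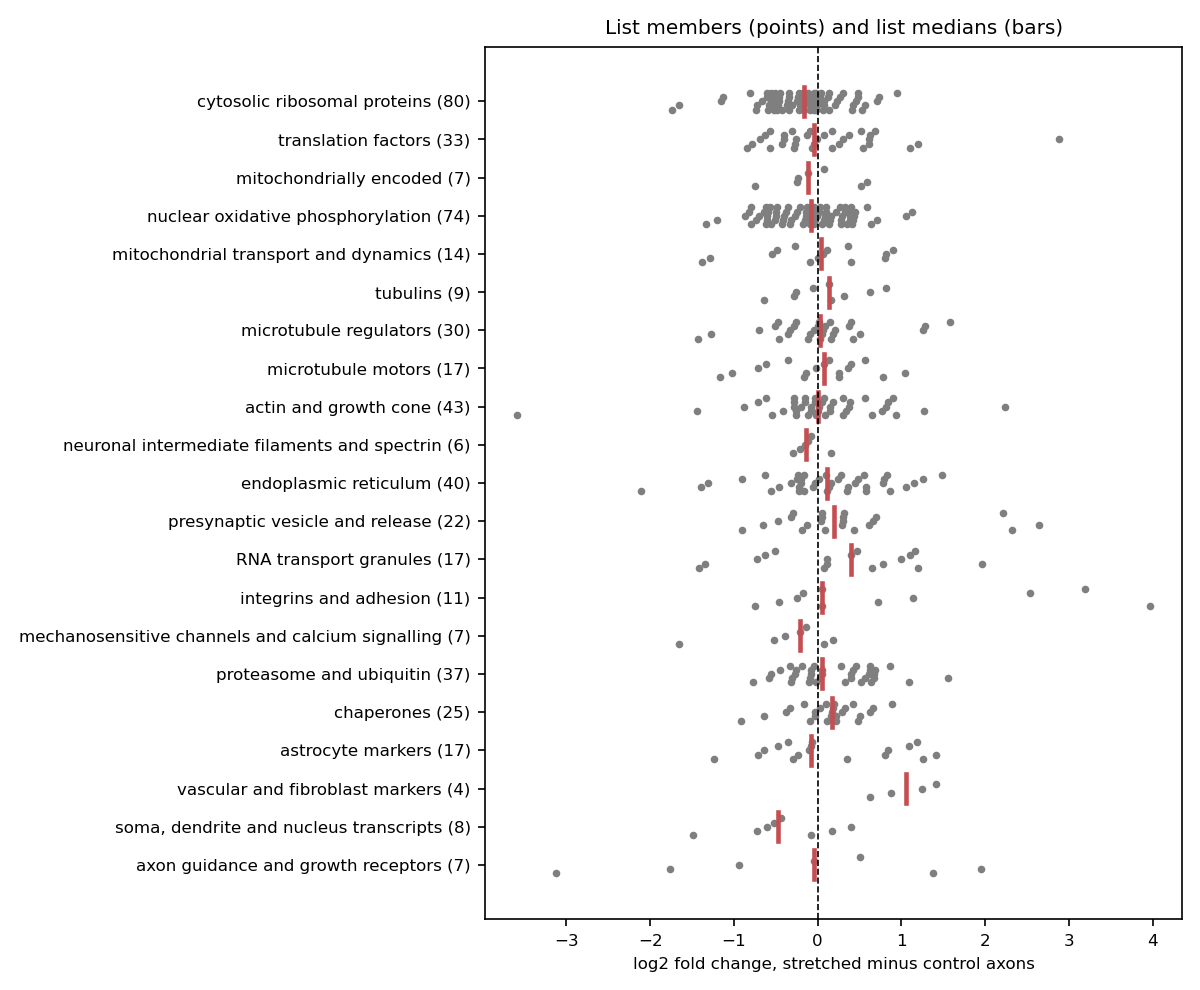
Log2 fold change (stretched minus control axons) of the members of 21 lists that have at least 3 members counted in at least 9 of 11 axonal libraries; each grey point is a gene, red bars are list medians, the dashed line is the median of all tested genes and the number of genes is in brackets. List medians lie between -0.48 and 1.06, and the members of each list lie on both sides of 0 except for the 4 vascular and fibroblast markers.

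Detection frequency covers the genes too sparse for a fold change. Of 55487 gene IDs, 16409 had a count in some axonal library, 14061 of them in 1 to 8 libraries and 1035 in all 11. Genes counted only in controls numbered 2431 and only in stretched axons 3099, from 5 and 6 libraries. The share of libraries with the gene was higher in stretched axons for 7636 genes, higher in controls for 7738 and equal for the 1035 counted in all 11. Control libraries held 6306 ± 2248 genes (SD, n = 5) and stretched libraries 6445 ± 2037 (SD, n = 6). The difference of 139 genes had an exact two-sided permutation p of 0.903 over 462 regroupings, the smallest possible p being 0.00216, and it turned to -585 without stretched replicate 8 and to 1123 without control replicate 5.

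How often a gene was detected followed its level in somata in both groups. Of 88 genes at 1000 CPM or more in somata, 98.9% ± 1.14 were detected in a control (SD, n = 5) and 99.4% ± 0.951 in a stretched library (SD, n = 6). Of 2279 genes at 100 to 1000 CPM the shares were 74.6% ± 13.6 and 76.3% ± 15.7. Of 7162 genes at 10 to 100 CPM they were 38.7% ± 18.3 and 40.9% ± 17.4. At each level the SD between libraries exceeded the difference between groups.

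**Figure D4:**
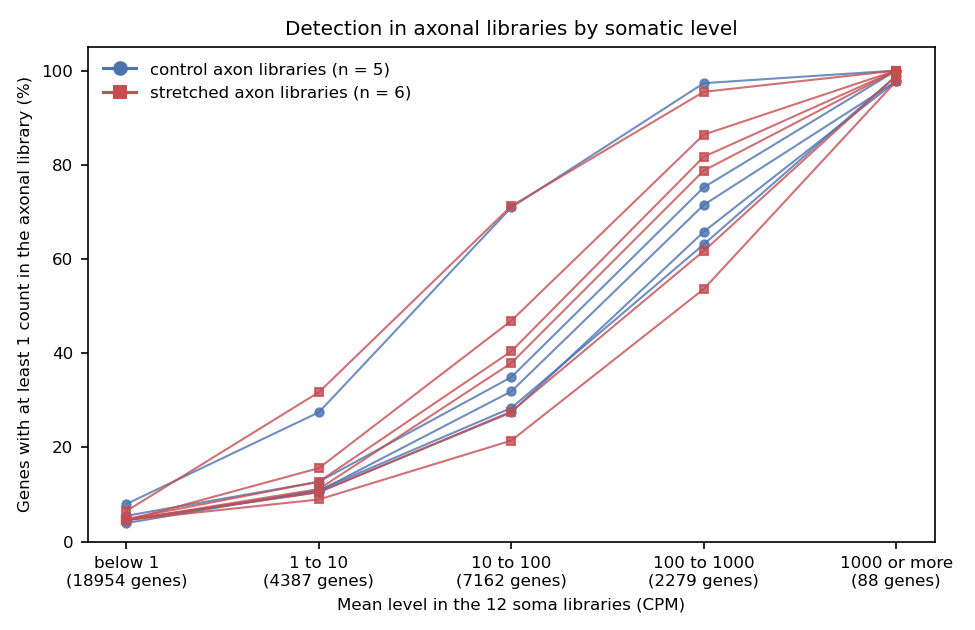
Percentage of genes with at least 1 count in each axonal library (y axis) by the mean level of the gene in the 12 soma libraries (x axis, CPM, with the number of genes in each class). Blue lines are control libraries (n = 5) and red lines stretched libraries (n = 6); the upper line of each group, control replicate 5 and stretched replicate 8, stands apart from the others at 10 to 100 CPM, at 70.9% and 71.2%.

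Detection that separated the groups fully was found for 4 genes of the 16409. Yeats4 (chromosome 10, 117215221 to 117224507, minus strand), a reader of histone acylation, was at 219, 83.6, 146, 45.0 and 0.0370 CPM in the controls, the last of these a single count, and at 0 in all 6 stretched libraries. Hccs (chromosome X, 169250193 to 169320372, minus strand), which attaches haem to cytochrome c, was at 8.97, 171, 92.4, 59.7 and 2.93 CPM in the controls and at 0 in every stretched library. Both were detected in the somata of both groups, at mean levels of 34.9 (control) and 29.0 CPM (stretched) for Yeats4. Tcta (chromosome 9, 108302958 to 108306160, minus strand) was at 0 in all 5 controls and at 456, 324, 89.9, 183, 209 and 152 CPM in the stretched libraries. Vkorc1l1 (chromosome 5, 129941970 to 129986692, plus strand), a vitamin K epoxide reductase, was at 0 in the controls and at 0.0327, 78.0, 45.9, 49.7, 149 and 58.7 CPM in the stretched libraries, the first of these a single count. No test was run on these 4 genes, 2 in each direction.

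Within the lists, single members differed in detection in either direction, and the following were picked after their values were seen. Their patterns are shared by other genes. Of all 16409 detected genes, 15 were counted in 0 control and 5 stretched libraries and 39 in 0 and 4. In the same order, 30 genes were counted in 5 and 2 libraries, 75 in 3 and 0, and 45 in 2 and 6. Efna5, an ephrin ligand of axon guidance, was at 0 in the controls and at 415, 328, 0, 143, 378 and 51.4 CPM in stretched axons. Smn1, of the complex that assembles ribonucleoproteins, was at 0 in the controls and at 259.6, 142, 0, 78.0, 99.2 and 34.4 CPM in stretched axons. Its partner Gemin6 was counted in 5 of 5 control and 2 of 6 stretched libraries, at 163, 91.8, 97.2, 22.1 and 153 CPM in the controls and 0, 0, 0, 0, 33.3 and 62.6 CPM in stretched axons. Itga6, a laminin-binding integrin, was counted in 0 of 5 control and 4 of 6 stretched libraries, at 849, 0, 186, 167, 0 and 108 CPM. Bcan, a proteoglycan on the astrocyte list, was counted in 0 of 5 and 5 of 6. Shtn1, the clutch protein shootin1 that couples actin flow to adhesion, was counted in 3 of 5 controls, at 0, 0, 23.3, 261 and 28.0 CPM, and in 0 of 6 stretched libraries. Neurod6, a transcription factor of hippocampal pyramidal neurons, was at 0, 0, 21.5, 612 and 0 CPM in the controls and 14.8, 9.59, 289, 539.7, 315 and 274 CPM in stretched axons.

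The share of a list's members detected per library overlapped between the groups for all 24 lists. The mean share was higher in stretched axons for 11 lists and lower for 13, and 0 differences exceeded the SD of both groups. For adhesion genes it was 50.4% ± 18.1 of the members in the controls (SD, n = 5) and 48.7% ± 17.7 in the stretched libraries (SD, n = 6). For guidance genes it was 41.7% ± 18.9 of the members in the controls (SD, n = 5) and 39.1% ± 12.5 in the stretched libraries (SD, n = 6). Motor genes had 65.8% ± 12.5 of the members in the controls (SD, n = 5) and 72.4% ± 15.3 in the stretched libraries (SD, n = 6). RNA granule genes had 64.1% ± 13.1 of the members in the controls (SD, n = 5) and 59.3% ± 18.4 in the stretched libraries (SD, n = 6), and somatodendritic and nuclear transcripts 59.3% ± 19.8 of the members in the controls (SD, n = 5) and 52.2% ± 20.0 in the stretched libraries (SD, n = 6). For microglial markers the values were 15.6% ± 12.04 of the members in the controls (SD, n = 5) and 28.7% ± 26.4 in the stretched libraries (SD, n = 6).

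The axonal fold changes were set beside those of the same genes in somata, which are other libraries of the same design. In somata 1008 of 2091 genes passed (48.2%), 532 higher and 476 lower in stretched cultures, against 0 of 2348 in axons. With scaling to total counts alone the split in somata was 355 higher and 814 lower. Of the 1008 genes 519 (51.5%) had the same sign in axons, against 1092 of all 2091 (52.2%). The median axonal SE of the 1008 genes was 1.42. Median somatic changes were 0.46 for the genes higher in stretched somata and -0.33 for the lower ones. Most axonal signs are therefore uncertain. Across the 2091 genes Pearson's r between the 2 fold changes was 0.038 and Spearman's rho 0.052, given as a description, since genes share libraries and are not independent replicates. For 57 genes the somatic estimate lay outside the 95% interval of the axonal one, and for the rest it lay inside.

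**Figure D5:**
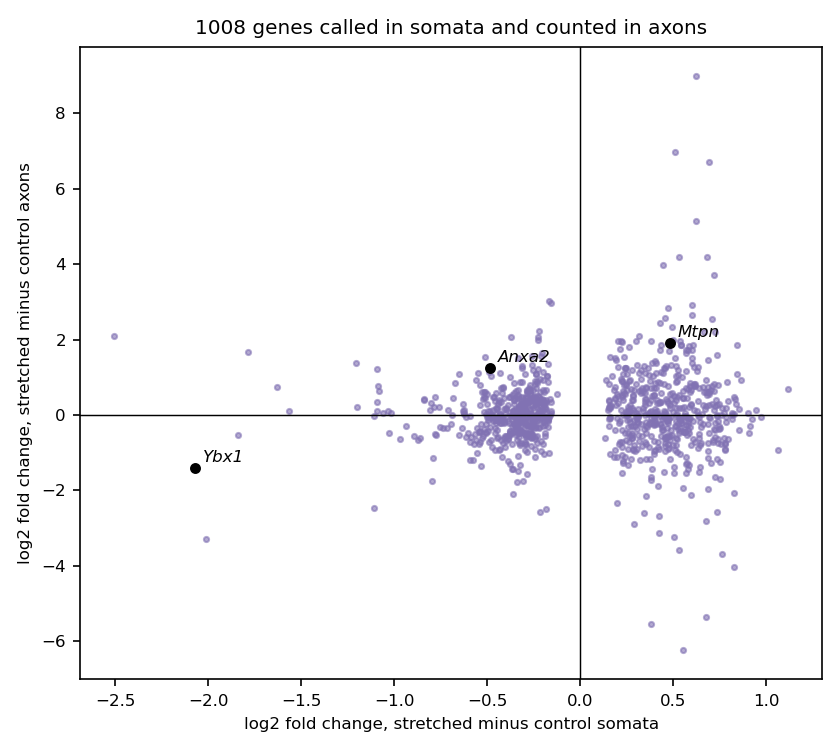
Log2 fold change in axons (y axis) against that in somata (x axis), stretched minus control, for the 1008 genes called in somata and counted in at least 9 of 11 axonal libraries; black points mark Anxa2, Mtpn and Ybx1. The cloud is spread over all 4 quadrants, and the axonal values span a wider range than the somatic ones. In both compartments 519 genes had the same sign (51.5%, against 52.2% of all 2091 genes tested in both).

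The test of the difference between compartments itself called 1 of 2348 genes (0.0426%), the noncoding gene 1300002E11Rik (chromosome 16, 21794318 to 21809040, plus strand). Its adjusted p was 0.0192 in edgeR, in a joint fit that used 1 spread for both compartments (coefficient of variation 1.02), with a somatic estimate of -0.097 that did not pass (adjusted p = 0.458). In axons control replicate 1 was as low as the stretched libraries, at 0.164 CPM, and the other 4 controls lay between 6.79 and 59.0 CPM. The call was absent with limma, which called 0, and the count ran from 0 to 8 when single axonal libraries were left out: it was 0 without stretched replicate 4, 5 or 6, 8 without control replicate 5, 3 without control replicate 2 or 3 or stretched replicate 2, and 2 without control replicate 7 or stretched replicate 8.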

How the data were processed

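RNA of 11 axonal and 12 soma libraries was sequenced from polyadenylated RNA with a low-input kit. The deposited values are raw read counts per Ensembl gene, 1 column per library, made by the authors with FastQC 0.11.9, MultiQC 1.12, fastp 0.20.1, STAR 2.7.08a and HTSeq 0.13.5 on mm10, per the submitters' processing notes, which give no roles. Annotation version, strand setting and whether the kit's unique molecular identifiers were used are not given in the sources used here. Without them reads are not independent molecules, so floors cover counting error only. Intervals come from the fit and also take in the spread between libraries. Reads that named no gene were left out: in the axonal libraries 3.95 to 7.94% lay in no feature, 5.14 to 5.94% were ambiguous and 6.48 to 13.4% aligned to more than 1 place. Symbols and coordinates came from a reference annotation of the same build, with 55141 of 55487 IDs matched.

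Genes with at least 1 count in at least 9 of 11 axonal libraries were tested, stretched against control, with edgeR 4.0.16 (TMM, robust quasi-likelihood F test, Benjamini-Hochberg adjusted p under 0.05) in R 4.3.3, tested on simulated data first. Intervals are the estimate plus or minus the t quantile times its SE. The same design was fitted to somata, and a joint model tested the difference between compartments. Alternatives were limma 3.58.1 with voom, DESeq2 1.42.0, other scalings, filters and covariates, the replicate number as a block, and each library left out. The split by Eif2s3y, the fits without the 2 libraries with the most genes, a filter of 10 counts, and the joint model without single libraries were added after seeing the data.

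The rule named, in each direction, the 10 genes of smallest unadjusted p with a mean of at least 10 CPM, the 2 most counted members of each list, Map2, Gap43, Tubb3, Actb, Gfap and Malat1, and genes detected in all libraries of 1 group and none of the other. Libraries and gene lists were chosen with earlier results of these data known, so no pattern in them is independent support. In the oxidative phosphorylation list 15 symbols matched no ID.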

Additional observations from a re-analysis of the deposited data

Results flagged for a closer look

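In 182 groups of values (a gene, a list sum or a library measure within 1 condition), 22 had a highest or lowest library far from the others by Dixon's criterion at the 95% level. That criterion assumes normally distributed values, whereas these were patchy, and the groups share libraries. How many of the 22 chance alone would give is therefore not known. Stretched replicate 2 was that library 5 times and control replicate 7 and stretched replicate 1 were 3 times each. Control replicate 5 held 10242 detected genes, against 4867 to 6029 in the other controls.

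Among genes with few filled libraries, the single high values were Rcbtb1 at 219 CPM (stretched replicate 4), Itfg1 at 35.3 CPM (control replicate 5), Inhba at 142 CPM (control replicate 7) and 0.392 CPM (stretched replicate 1), Frem1 at 166 CPM (control replicate 7), Creg2 at 128 CPM (control replicate 3) and 1.504 CPM (stretched replicate 1), and Foxo3 at 6.24 CPM (stretched replicate 8).

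Among heavily counted genes, stretched replicate 2 was high for Rplp0 at 4100.0 CPM and for mt-Cytb at 25942 CPM. Stretched replicate 5 was high for Slc25a4 at 3269 CPM and Tubb3 at 1615 CPM. Control replicate 3 was low for the filament gene Vim at 227 CPM, and the other controls held 1052 to 1311 CPM. Control replicate 1 was high for Pdia3 at 1392 CPM. Control replicate 7 was high for Cadm1, a synaptic adhesion molecule, at 1721 CPM (140 to 509 CPM in the other controls). Stretched replicate 6 was high for Psmd2 at 2125 CPM, and stretched replicate 1 for Malat1 at 2382 CPM.

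Of the summed levels, stretched replicate 2 was highest of its group for cytosolic ribosomal proteins at 45630.3 CPM and for translation factors at 17408 CPM. It was lowest for soma, dendrite and nucleus transcripts at 1498 CPM, where the other 5 held 3576 to 4256 CPM. Control replicate 2 was highest for microglia markers at 3486 CPM, with 0 to 214 CPM in the other controls.

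The long noncoding gene 1300002E11Rik was called by the joint fit, with a log2 change in axons that was -6.76 relative to that in somata (edgeR adjusted p = 0.0192). That fit used a coefficient of variation of 1.02, against 1.45 in axons and 0.163 in somata fitted alone. In axons alone the gene did not pass (edgeR adjusted p = 0.9996). The call was absent with limma and when some of the single libraries were left out, as given above. Every stretched axonal library was below 1 CPM for this gene and stretched replicate 8 was at 0, so the fitted value depends in part on the prior count and is no bound.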

How the results depend on the processing

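The count of 0 genes called between stretched and control axons was 8 with DESeq2 and 0 under every other filter, scaling, tool, covariate and left-out library run. The 65 genes with an interval within 2-fold became 5 with no filter, 112 with limma, 33 without the 2 libraries with an S number in their names (control replicate 7 and stretched replicate 8), 32 without the 2 libraries with the most genes (control replicate 5 and stretched replicate 8), 10 within the libraries above 20 CPM of Eif2s3y, and 40 (without control replicate 5) to 78 when single libraries were left out. The difference of 139 genes detected per library ran from -585 to 1123 with single libraries left out, reversing to -221 without control replicate 1, -200.0 without control replicate 2, -77.5 without control replicate 7 and -585 without stretched replicate 8. It was 219 after thinning to the smallest total. The 1 gene called for a difference between compartments became 0 with limma and 0 to 8 with single libraries left out. The cause was not tested. Of 1888 recomputed fold changes of 64 named genes, 145 changed sign, in 31 genes, and 33 genes kept their sign. A change within 1 SE of an uncalled gene was taken as no change, and on that basis 73 values moved. Only DESeq2 brought named genes past the threshold (Frem1, Inhba, Kdsr and Stxbp6). Of 21 list medians 4 kept their sign in every alternative (ribosomal proteins, nuclear oxidative phosphorylation, somatodendritic transcripts, vascular markers). The alternatives reuse the same libraries, so a kept sign is no separate support.

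With the replicate block, 0 genes were called in axons, 9 had an interval within 2-fold and 0 differed between compartments. In somata the block gave 803 calls. The mean difference of the 3 same-numbered pairs in genes detected was -1498 (exact sign-flip p = 0.25, the smallest possible). In a check for pairing, same-numbered libraries correlated at 0.084, 0.050 and 0.049. Those of different numbers had a mean of -0.0049 and a highest value of 0.145. These are not the correlations of log levels given earlier. With 3 pairs, whether same-numbered libraries share a culture cannot be told.

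A floor of 3 counts was 0.0697 to 0.183 CPM. A gene below that floor could still count as detected, but its level is uncertain. The median SE of a fold change was 1.29 on the log2 scale. An SE is not a limit of detection, and for most genes a difference of that size could not be told from no change.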
